A study of Mus musculus with 23 samples.

Results

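The 9 transcription factors that build the osteoblast lineage, Runx2, Cbfb, Sp7, Dlx5, Dlx3, Msx2, Creb3l1, Atf4 and Twist1, were described here in bone RNA-Seq across genotype and type 1 diabetes (T1D). They were taken by gene symbol, and all 9 of 9 were found among the 17644 genes of the deposited expression table. Bone came from 23 female mice of strain C57BL6/N aged 11 weeks. WT Control (n = 5) and KO Control (n = 6) mice had received saline at 8 weeks of age. WT T1D (n = 6) and KO T1D (n = 6) mice had received repeated doses of streptozotocin, a toxin of pancreatic beta cells, at 100 mg/kg each. They had been diabetic for 3 weeks. KO stands for the label Sarm1-KO, a global deletion on this background, and the WT mice were littermates of heterozygous breeding or animals ordered from a vendor. The tissue was femur and tibia of 1 hind limb, freed of the epiphyses and spun free of marrow, so that each library is 1 mouse and holds every cell type left in the bone.

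RUNX2 is the transcription factor on which osteoblast commitment depends, and it binds DNA as a pair with CBFB. SP7, also called osterix, acts downstream of RUNX2, and the homeodomain factors DLX5, DLX3 and MSX2 bind the regulatory regions of RUNX2 and of matrix genes. CREB3L1 (OASIS) is held in the endoplasmic reticulum and, once cleaved, activates type I collagen. ATF4 drives amino acid supply and late osteoblast genes and is a central factor of the integrated stress response, and TWIST1 is a bHLH protein of early mesenchyme that restrains RUNX2. In GRCm38.p6 the genes lie at chr17:44495987-44814797 (Runx2), chr8:105170674-105217989 (Cbfb), chr15:102356603-102367035 (Sp7), chr6:6877801-6882068 (Dlx5), chr11:95120117-95125296 (Dlx3), chr13:53466881-53472780 (Msx2), chr2:91982328-92024170 (Creb3l1), chr15:80255184-80257545 (Atf4) and chr12:33957671-33959831 (Twist1).

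The promoter windows of Runx2 and Atf4 are shown because Runx2 was the only member called with T1D in WT mice and Atf4 the only tested member whose fold change there was above 0. Both are RefSeq windows in GRCm38.p6, from 250 bases before to 50 bases after an annotated start, printed 5′ to 3′ on the strand of the gene. Runx2 has several annotated starts, and the window is placed on 1 of them. The outermost base of the gene on that side, 44814797, also lies inside the window. Capitals mark the RUNX motif ACCACA and the CRE core TGACG, each searched on both strands, so that CGTCA marks the same core on the other strand.
Runx2 chr17:44814578-44814877, minus strand: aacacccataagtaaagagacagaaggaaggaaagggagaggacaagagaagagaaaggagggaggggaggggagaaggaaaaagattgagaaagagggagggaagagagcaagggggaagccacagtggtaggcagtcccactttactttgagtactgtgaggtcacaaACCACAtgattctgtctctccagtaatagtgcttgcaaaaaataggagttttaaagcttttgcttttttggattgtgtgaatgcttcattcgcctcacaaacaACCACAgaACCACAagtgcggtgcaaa
Atf4 chr15:80254934-80255233, plus strand: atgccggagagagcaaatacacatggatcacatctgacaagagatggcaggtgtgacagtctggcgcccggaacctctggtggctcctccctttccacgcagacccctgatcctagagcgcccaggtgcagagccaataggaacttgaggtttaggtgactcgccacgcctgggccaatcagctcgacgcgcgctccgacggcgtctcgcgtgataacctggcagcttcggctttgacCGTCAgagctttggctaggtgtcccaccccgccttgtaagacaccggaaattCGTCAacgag

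The Runx2 window held 3 matches to the RUNX motif, whereas 16.8% of the 32851 windows of the same length held at least 1. None of the other 4 members with a window (Atf4, Cbfb, Msx2, Twist1) held a match. The Atf4 window held 2 matches to the CRE core, a motif found in 20.8% of windows, and Msx2 and Twist1 held 1 match each. The Cbfb window was the richest in G and C of the 5, at 69.7%, and held 4 matches to the GC box GGGCGG, which 35.7% of windows held. Runx2 was the lowest, at 45.3% G and C against a median of 52.7% over all windows. These are letter matches and were not tested as binding sites.

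Total counts per library lay between 16938101 and 20135592, so that depth differed little between groups. Sarm1, the deleted gene, gave between 5 and 32 counts in every library. In CPM, the counts scaled to a fixed library total corrected for RNA composition by TMM factors, the WT Control mean was 1.17 ± 0.403 (SD, n = 5) and the WT T1D mean 0.687 ± 0.293, while KO Control stood at 0.799 ± 0.503 and KO T1D at 1.19 ± 0.259 (n = 6 each). The libraries labelled KO overlapped the WT libraries in Sarm1 RNA, and genotype is given here as the label only. Markers of osteoblasts, osteocytes and blood cells were all detected, and hemoglobin genes took 8.01% to 21.4% of the counts. WT T1D mice A3905 and A3906 stood apart from the other WT T1D mice. Mouse IDs beginning with A17 occurred in 1 WT Control and 3 WT T1D mice only, and what the ID series stands for was not stated. IDs beginning with A39 were all WT, and IDs beginning with A36 were all labelled KO. Only A3767 (WT Control) and A3766 (KO Control) shared a series across genotypes. Genotype and ID series can therefore hardly be told apart in any comparison of WT mice with mice labelled KO. With T1D in WT mice 334 of 14364 genes were called, 215 higher and 119 lower; with library size as the only scaling 76 were higher and 190 lower, and on the log2(TPM + 1) scale, where TPM are transcript levels corrected for gene length, 83 were higher and 5071 lower.

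On a scale that corrects for gene length, TPM, the members spanned a wide range in WT Control bone. Atf4 was the most abundant at 227 ± 10.5 TPM (SD, n = 5), followed by Creb3l1 at 134 ± 39.1 TPM and Sp7 at 107 ± 25.6 TPM. A middle group held Cbfb at 41.3 ± 5.19 TPM, Dlx3 at 38.5 ± 10.3 TPM, Dlx5 at 36.7 ± 11.4 TPM, Runx2 at 27.9 ± 3.35 TPM and Twist1 at 22.8 ± 8.15 TPM. Msx2 was near the limit of detection at 0.298 ± 0.121 TPM. Of the neighbours in this order, only Atf4 and Creb3l1, Sp7 and Cbfb, and Twist1 and Msx2 were farther apart than the larger of their SDs. RUNX2's transcript was thus among the less abundant of the factors, whereas those of SP7 and CREB3L1 were among the most abundant.

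In WT mice, Runx2 fell with T1D and was the only member to pass the test. The question in this comparison was whether diabetes changed the program of bone-forming cells when the genotype was normal. Runx2 fell by 0.66 on the log2 scale (SE 0.16, adjusted p = 0.0451, edgeR quasi-likelihood test with Benjamini-Hochberg adjustment over 14364 genes), and 2.33% of all genes passed the same test. Of the 9 members, 8 had enough counts to be tested, Msx2 being too low, and 7 of the 8 had a lower fitted mean in WT T1D than in WT Control. The median log2 fold change over the 8 members was -0.66, against -0.011 over all genes tested. At an unadjusted p under 0.05 the members numbered 7 of 8, beside 22.2% of all genes; these were 6 with a lower fitted mean and Atf4 with a higher one, and Twist1 was not among them. In none of the 8 were the WT T1D and WT Control mice fully separated, a property of 2.19% of all genes. In bulk bone, fewer cells of a type and less RNA per cell cannot be told apart.

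**Figure D1:**
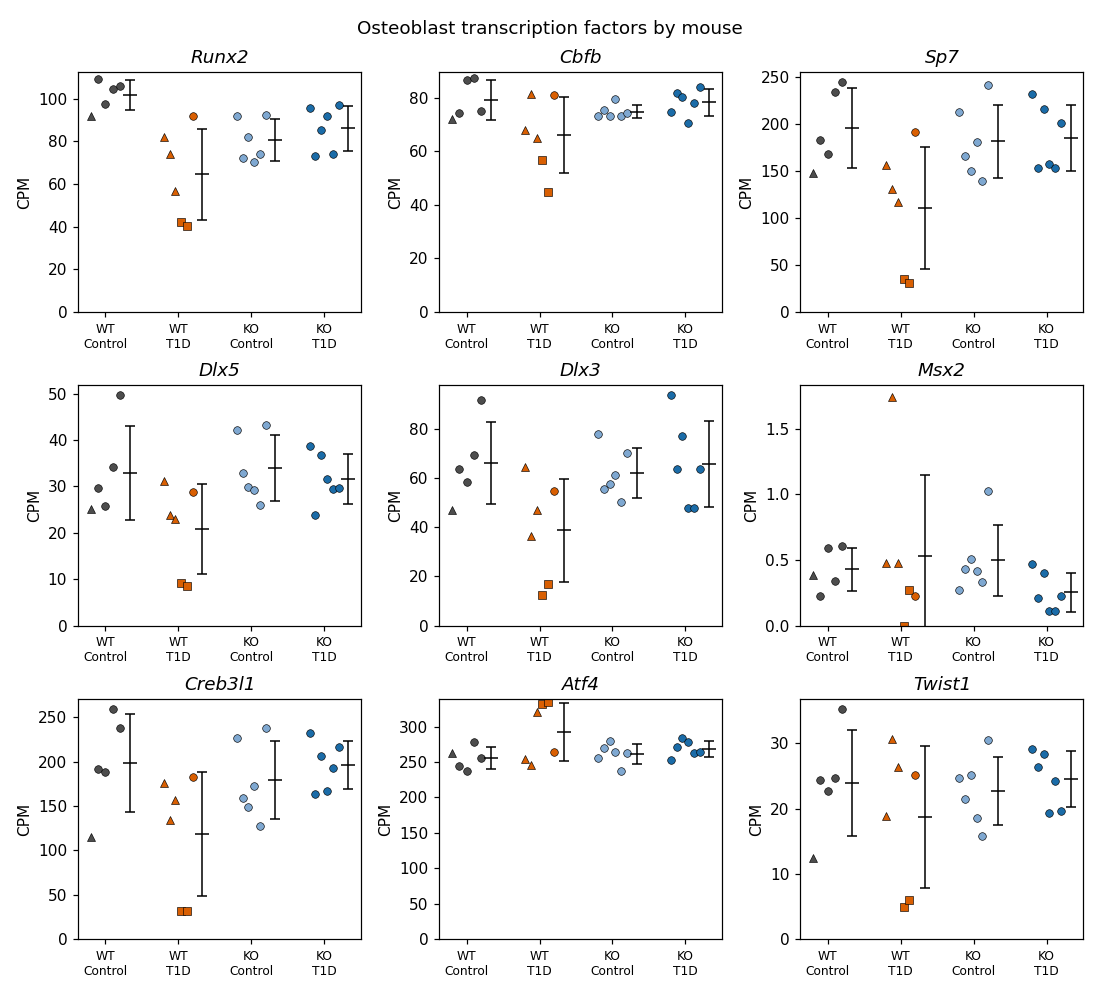
CPM of each of the 9 members (one panel each, vertical axis from 0) in each mouse, by group; triangles are mice with A17 IDs, squares are WT T1D mice A3905 and A3906, circles are all others, and bars give the mean and SD, cut at 0 for Msx2. For Runx2, A3905 and A3906 sit at 42.4 and 40.2 CPM, below all 5 WT Control mice (91.8 to 109 CPM), whereas the KO T1D mice (73.0 to 97.2 CPM) overlap the KO Control mice.

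The partners RUNX2 and CBFB, which bind as a heterodimer, had fold changes of different size. Runx2 stood at 91.8, 109, 97.4, 104 and 106 CPM in the WT Control mice A1757, A3767, A3903, A3904 and A3907. In the 6 WT T1D mice it ran from 40.2 CPM through a median of 65.3 CPM to 91.9 CPM. Of these 6 mice, 5 were below every WT Control mouse, and the remaining mouse, A3909, at 91.9 CPM, was just above the lowest of them, A1757. Cbfb, which encodes the subunit that does not itself contact DNA and is shared with the blood-forming RUNX proteins, was at 72.2 to 87.5 CPM (median 75.1) in WT Control and at 44.7 to 81.2 CPM (median 66.4) in WT T1D. For Cbfb, 4 of 6 WT T1D mice were below the lowest WT Control mouse. Its log2 fold change was -0.26 (SE 0.11, 95% interval -0.48 to -0.04, edgeR adjusted p = 0.154), which did not pass the test.

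The Runx2 call lay close to the threshold and rested on many of the libraries. It was lost in 14 of the 23 fits that left out 1 mouse, with edgeR adjusted p between 0.0520 and 0.121 in those 14 and a lowest value of 0.0114 without WT T1D mouse A3909. The 14 mice were A1787, A3905 and A3906 of WT T1D, A3767, A3903, A3904 and A3907 of WT Control, and 7 mice labelled KO (A3670, A3673, A3679, A3680, A3675, A3676 and A3681). Its log2 fold change stayed between -0.79 and -0.54 across the 23 fits. Without both A3905 and A3906 it was -0.42 (SE 0.12, edgeR adjusted p = 0.286).

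Sp7, which marks the committed preosteoblast, had the largest fold change of the members. The WT Control mice stood at 148, 183, 169, 234 and 245 CPM in A1757, A3767, A3903, A3904 and A3907, respectively. WT T1D mice ran from 30.7 CPM through a median of 124 CPM to 192 CPM, 4 of 6 below every WT Control mouse. A3905 at 35.3 CPM and A3906 at 30.7 CPM were far below the other WT T1D mice, which began at 117 CPM. The log2 fold change was -0.82 (SE 0.32, 95% interval -1.49 to -0.16, edgeR adjusted p = 0.136) and did not pass the test. It was called at an adjusted p of 0.0440 (edgeR) in the fit without A3909, and in no other fit that left out 1 mouse.

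The homeodomain factors Dlx5 and Dlx3 were likewise lowest in A3905 and A3906. Dlx5, which acts upstream of Sp7, was at 25.1 to 49.8 CPM (median 29.7) in WT Control and at 8.56 to 31.1 CPM (median 23.4) in WT T1D. Dlx3, a factor of osteoblasts and osteocytes, was at 47.0 to 91.7 CPM (median 63.7) in WT Control and at 12.2 to 64.3 CPM (median 41.7) in WT T1D. For both genes, 4 of the 6 diabetic WT mice were under the whole WT Control range. The log2 fold changes were -0.67 for Dlx5 (SE 0.27, edgeR adjusted p = 0.143) and -0.77 for Dlx3 (SE 0.30, edgeR adjusted p = 0.127), and neither passed the test.

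Msx2, the third homeodomain factor, was too low to be tested, and its CPM are scaled by the library total alone. It gave 0 to 31 counts per mouse and reached 10 counts in only 4 of 23 mice. The single count of 0, in A3905, allows a level of up to 0.158 CPM, for counting error only. The highest value, 1.74 CPM in WT T1D mouse A1764, came from a mouse with no comparable excess in the other members. With no low-count filter, the log2 fold change with T1D was 0.36 in WT (SE 0.63, edgeR adjusted p = 0.800) and -0.90 in mice labelled KO (SE 0.62, edgeR adjusted p = 1.00).

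Creb3l1 and Twist1 were below the WT Control range in A3905 and A3906 only. Creb3l1 was at 115 to 259 CPM (median 192) in WT Control, and the WT T1D mice other than these 2 were at 134 to 182 CPM, within that range. A3905 and A3906 were at 31.2 and 31.6 CPM. Twist1 was at 12.4 to 35.3 CPM (median 24.5) in WT Control and at 18.8 to 30.7 CPM in the other 4 WT T1D mice, whereas A3905 and A3906 were at 4.98 and 6.01 CPM. The log2 fold change over all mice was -0.74 for Creb3l1 (SE 0.35, edgeR adjusted p = 0.207) and -0.36 for Twist1 (SE 0.34, edgeR adjusted p = 0.566). Without both mice it was -0.29 for Creb3l1 and 0.08 for Twist1.

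Atf4 was the exception among the tested members. It was at 237 to 278 CPM (median 255) in WT Control and at 246 to 334 CPM (median 293) in WT T1D, with 3 of 6 WT T1D mice above every WT Control mouse. Those 3 were A1787 at 321 CPM, A3905 at 333 CPM and A3906 at 334 CPM, which were also the WT T1D mice lowest in Runx2. The log2 fold change of Atf4 was 0.19 in counts (SE 0.08, 95% interval 0.03 to 0.36, edgeR adjusted p = 0.156) but -0.11 on the log2(TPM + 1) scale (SE 0.07, limma adjusted p = 0.219). On that scale the median of all genes was itself at -0.24, so that Atf4 lay above the median gene on both scales. For the other 7 tested members the sign was the same on both scales, and limma on log2(TPM + 1) called 6 of 8 members (Runx2, Cbfb, Dlx3, Dlx5, Sp7 and Creb3l1), beside 35.9% of all genes.

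**Figure D2:**
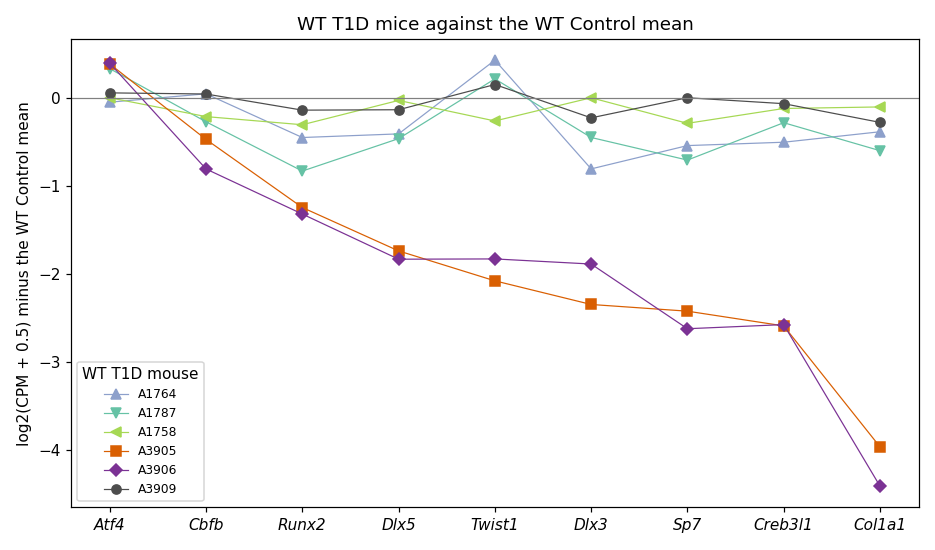
Difference on the log2(CPM + 0.5) scale between each of the 6 WT T1D mice and the WT Control mean (0 line), for 8 members and for Col1a1, the type I collagen gene; each line joins the values of 1 mouse. A3905 and A3906 lie from -2.63 to -0.48 for the 7 members other than Atf4, where they lie at 0.38 and 0.39, whereas the other 4 mice lie between -0.84 and 0.42 for all 8.

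The members differed in how far A3905 and A3906 departed from the WT Control mean. The difference, averaged over these 2 mice on the log2(CPM + 0.5) scale, was -2.59 for Creb3l1, -2.53 for Sp7, -2.12 for Dlx3, -1.96 for Twist1, -1.79 for Dlx5, -1.29 for Runx2 and -0.64 for Cbfb. In the other 4 WT T1D mice the mean difference was -0.44 for Runx2, -0.39 for Sp7, -0.37 for Dlx3, -0.26 for Dlx5, -0.25 for Creb3l1, -0.10 for Cbfb and 0.13 for Twist1. All 4 of these mice were below the WT Control mean for Runx2, Sp7, Dlx5, Dlx3 and Creb3l1. Runx2 thus had the largest mean difference in the mice that did not stand apart, though 5 members departed further in the 2 that did. Without A3905 and A3906 the edgeR fit called 0 of 8 members and 0 of 14317 genes in WT, and 2 of 8 members (Runx2 and Sp7) had an unadjusted p under 0.05, beside 11.0% of all genes.

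The same 2 mice differed in markers of other cells. Hemoglobin genes took 21.4% of the counts in A3905 and 21.0% in A3906, against 9.73% to 13.9% in WT Control. The mean log2 level of 12 osteoblast and osteocyte markers was 6.55 and 6.48 in the 2 mice, against 8.45 to 9.32 in WT Control, and none of the 12 was at 0 in every library. For 9 B cell markers the level was 2.88 and 3.16, against 5.05 to 5.98 in WT Control, and for 10 neutrophil markers it was 11.6 and 11.4, against 10.6 to 10.9. For 8 osteoclast markers it was 6.51 and 6.63, against 5.49 to 6.05 in WT Control, and for 6 tested adipocyte markers it was 4.55 and 4.70, against 2.52 to 3.44. Col1a1, a target of RUNX2, SP7 and CREB3L1, was at -3.97 and -4.42 log2 units from the WT Control mean, farther than any of the factors. The other WT T1D mice were at -0.60 to -0.11. Over all mice the log2 fold change of Col1a1 with T1D in WT was -0.91 (edgeR adjusted p = 0.282), which did not pass the test. Beyond a fit with the erythroid level as a covariate, given below, the part of tissue makeup in the member values was not tested.

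Over the whole WT comparison, the erythroid list had the opposite sign to most members. All 13 of 13 tested erythroid markers had a higher fitted mean in WT T1D, and 5 rose by the edgeR test, beside 1.50% of all genes. Their mean log2 level was 10.1 ± 0.186 (SD) in the 5 WT Control mice and 10.7 ± 0.314 in the 6 WT T1D mice (exact two-sided permutation p = 0.0130, adjusted over 11 lists p = 0.107). The osteoblast and osteocyte list was at 8.99 ± 0.327 and 7.92 ± 1.11 (exact permutation p = 0.0563, adjusted p = 0.124). By edgeR 1 of its 12 markers fell, beside 0.828% of all genes. With the erythroid level as a covariate, the log2 fold change of Runx2 was -0.31 (SE 0.16, edgeR adjusted p = 1.00), that of Creb3l1 was 0.12 and that of Twist1 was 0.39, and 0 genes of 14364 were called (637 at an unadjusted p under 0.05). The erythroid level was itself higher in mean in WT T1D, at 11.0 in A3905 and 11.2 in A3906. This fit therefore cannot tell it apart from T1D.

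The remaining marker lists were read in the same way. Growth plate cartilage markers were at a mean log2 level of 4.73 ± 1.04 and 3.03 ± 1.02 (exact permutation p = 0.0260, adjusted p = 0.107), and all 9 tested were lower in fitted mean. Adipocyte markers were at 3.12 ± 0.371 and 3.85 ± 0.615 (exact permutation p = 0.0390, adjusted p = 0.107), and 1 of 6 tested rose by edgeR, beside 1.50% of all genes. For endothelial, neutrophil, B cell, skeletal muscle and osteoclast markers the exact permutation p was 0.0693, 0.338, 0.431, 0.500 and 0.812 in that order. The RUNX2 and SP7 target genes described further on were at 8.20 ± 0.403 and 7.26 ± 0.778 (exact permutation p = 0.0368, adjusted p = 0.107), and the ATF4 target genes gave an exact permutation p of 0.115. Most of the osteoblast and osteocyte markers, Col1a1 and Ibsp among them, are also in the RUNX2 and SP7 target list. The values of these lists are therefore not separate observations. None of the 11 lists passed after adjustment.

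Within the mice whose IDs begin with A36 to A39, the WT fold changes were larger and 7 of 8 members were called by edgeR. There were 4 WT Control and 3 WT T1D mice in this set, and 2 of those 3 were A3905 and A3906. Members fell with log2 fold changes of -0.83 for Runx2 (edgeR adjusted p = 0.0171), -1.33 for Dlx3 (adjusted p = 0.0221), -1.15 for Dlx5 (adjusted p = 0.0269) and -1.42 for Creb3l1 (adjusted p = 0.0328). Cbfb (-0.40) and Twist1 (-1.14) also fell, and Atf4 rose by 0.30 (edgeR adjusted p = 0.0431, 0.0499 and 0.0303). Sp7, at -1.27, had an edgeR adjusted p of 0.0507. In these mice 15.5% of all genes were called. With the A17 series as a term in the fit of all 23 mice, a setting chosen after seeing the data, Runx2 fell by 0.70 (SE 0.18, edgeR adjusted p = 0.0326) and was the only member called, beside 5.58% of all genes. The A17 series held 1 WT Control mouse, too few for a value with an error. That mouse, A1757, was at 91.8 CPM for Runx2, above the A17 mice with T1D at 74.0, 56.7 and 81.8 CPM. For Sp7 it was at 148 CPM, within the range of the A17 mice with T1D (117 to 157 CPM).

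In mice labelled KO, no member was called with T1D. The comparison asked whether diabetes changed the same genes where Sarm1 was labelled as deleted. By edgeR, 0 of 8 members and 0% of all genes passed the adjusted test, the lowest adjusted p of any gene being 0.797. At an unadjusted p under 0.05 there were 0 of 8 members, beside 3.15% of all genes. The log2 fold changes lay between -0.10 (Dlx5) and 0.13 (Creb3l1), with a median of 0.07 over the members and of -0.0016 over all genes.

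The values of KO Control and KO T1D mice overlapped in every member. The share of all genes with such an overlap was not counted. Runx2 was at 70.4 to 92.4 CPM (median 78.1) in KO Control and at 73.0 to 97.2 CPM (median 88.4) in KO T1D. Sp7 was at 139 to 241 CPM (median 174) and at 153 to 231 CPM (median 180). Creb3l1, at 128 to 239 CPM (median 166) and 164 to 233 CPM (median 199), and Twist1, at 15.8 to 30.5 CPM (median 23.1) and 19.3 to 29.1 CPM (median 25.3), overlapped in the same way. Dlx5 ran from 26.0 to 43.3 CPM and from 23.9 to 38.7 CPM, Dlx3 from 50.3 to 78.0 CPM and from 47.8 to 93.6 CPM, Cbfb from 73.0 to 79.7 CPM and from 70.5 to 83.9 CPM, and Atf4 from 237 to 280 CPM and from 253 to 285 CPM. No mouse labelled KO reached the low values of A3905 or A3906 in Runx2, Sp7, Creb3l1, Dlx5, Dlx3, Cbfb or Twist1. The 95% interval of the log2 fold change was -0.22 to 0.42 for Runx2 and -0.15 to 0.28 for Cbfb. For Sp7 the interval was -0.61 to 0.67 and for Atf4 it was -0.12 to 0.20.

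**Figure D3:**
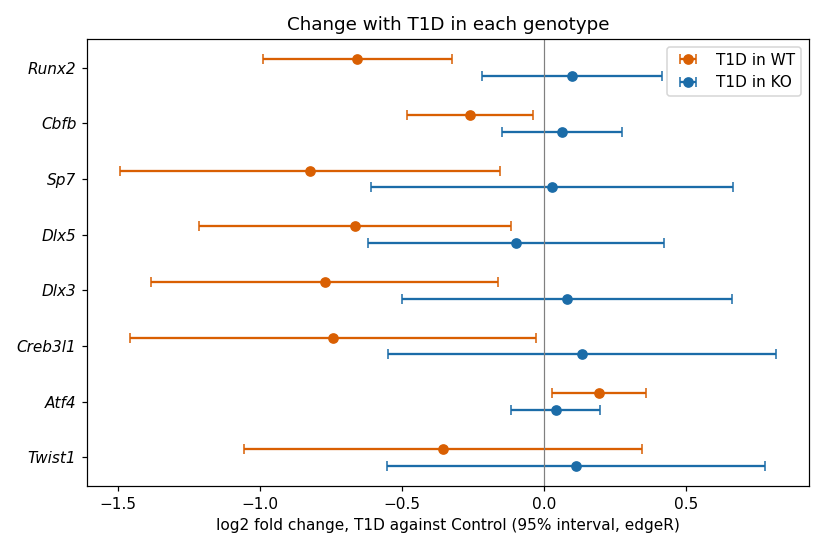
Log2 fold change of T1D against Control (points) with its 95% interval (bars) from the edgeR fit, for the 8 tested members, in WT mice (orange) and in mice labelled KO (blue). In WT 7 of 8 points lie below 0, from -0.82 for Sp7 to -0.26 for Cbfb, whereas in mice labelled KO all 8 lie between -0.10 and 0.13; Atf4, at 0.19 in WT, was at -0.11 on the TPM scale.

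No member passed the test of the difference between the genotypes in the T1D response. As a log2 difference (T1D effect in mice labelled KO minus that in WT), it was 0.76 for Runx2 (SE 0.22, unadjusted p = 0.00247, edgeR adjusted p = 0.479), 0.85 for both Dlx3 and Sp7 (SE 0.41 and 0.45), 0.88 for Creb3l1 (SE 0.48), 0.57 for Dlx5 (SE 0.37), 0.47 for Twist1 (SE 0.47), 0.32 for Cbfb (SE 0.15) and -0.15 for Atf4 (SE 0.11). Runx2, Cbfb and Dlx3 had an unadjusted p under 0.05, which is 3 of 8 members beside 10.2% of all genes. After adjustment, 0 of 8 members and 0% of all genes passed by edgeR, and 0 genes passed by DESeq2, where the adjusted p of Runx2 was 0.281. Without A3905 and A3906 the median difference over the members was 0.31, against 0.66 with them.

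Between the control groups, Runx2 was the only member with a low unadjusted p. KO Control mice had a mean of 80.5 ± 9.80 CPM (SD, n = 6) and WT Control mice of 102 ± 7.01 CPM (n = 5), and the KO Control value was under the whole WT Control range in 5 of 6 mice. The log2 difference was -0.34 (SE 0.16, 95% interval -0.67 to -0.01, unadjusted p = 0.0465, edgeR adjusted p = 0.999), and 4.80% of all genes had an unadjusted p under 0.05. By the adjusted test 0 of 8 members were called, beside 0.0278% of all genes. The comparison of T1D in WT and the test of the difference between genotypes use the same WT Control mice, so that their Runx2 values enter all 3. The other 7 members differed by -0.15 (Creb3l1) to 0.04 (Dlx5) log2 units.

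Between the T1D groups, tested members other than Atf4 were higher in the mice labelled KO without passing the adjusted test. The T1D groups shared no ID series, so that genotype and ID series cannot be told apart here. By edgeR, 0 of 8 members were called, beside 0.0905% of all genes. At an unadjusted p under 0.05 there were 6 of 8, beside 17.1% of all genes. The log2 differences were 0.76 for Dlx3, 0.75 for Sp7, 0.73 for Creb3l1, 0.61 for Dlx5, 0.42 for Runx2, 0.39 for Twist1, 0.24 for Cbfb and -0.12 for Atf4, with edgeR adjusted p between 0.202 and 0.542. In the A36 to A39 mice edgeR called 2 members, Dlx3 at 1.22 (adjusted p = 0.0305) and Dlx5 at 1.02 (adjusted p = 0.0435), beside 10.8% of all genes. On the log2(TPM + 1) scale limma called 3 of 8 members (Runx2, Dlx3 and Sp7), beside 8.12% of all genes. Without A3905 and A3906 the median over the 8 members was 0.21, against 0.51 with them.

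Ordered by group mean in CPM, WT T1D was the lowest group for 7 of the 9 members and the highest for Atf4 and Msx2. In TPM it was instead the lowest for Atf4 (212 TPM, against 225 to 227 TPM). For Msx2 it was then just under KO Control (0.332 and 0.333 TPM). The Msx2 mean in CPM was raised by A1764, and the WT T1D median of 0.376 CPM was below that of WT Control, 0.385 CPM. In CPM, the step from WT T1D to the next group exceeded the larger SD for Sp7, Dlx5 and Dlx3 but not for Runx2, Creb3l1, Cbfb, Twist1, Atf4 or Msx2. For Runx2 the step that exceeded it was at the top of the order, from WT Control at 102 CPM to KO T1D at 86.2 ± 10.6 CPM (n = 6). Among WT Control, KO Control and KO T1D, no neighbours differed by more than the larger SD for Sp7, Dlx5, Dlx3, Creb3l1, Cbfb, Twist1 or Atf4.

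Other genes of the same pathways were read from lists of 40 further skeletal transcription factors, 25 RUNX2 cofactors and regulators, 10 TWIST1 partners, 22 RUNX2 and SP7 target genes and 36 ATF4 target genes. With T1D in WT, 1 of 37 tested further factors fell, beside 0.828% of all genes, and the median log2 fold change was -0.29. The count depended on the setting, with 21 called lower by limma on log2(TPM + 1), where 35.3% of all genes were, and 10 called lower by edgeR in the A36 to A39 mice, where 7.66% of all genes were. The gene was Creb3l2, a relative of Creb3l1 that also activates secretory genes, at 61.4 ± 7.41 CPM in WT Control and 41.9 ± 12.1 CPM in WT T1D (log2 -0.55, edgeR adjusted p = 0.0499). Among the factors with the largest changes, Six2 at 1.84 and Ebf2 at -0.94 did not pass the test. Six2 and Ebf2 were below 2 CPM in group mean throughout.

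Cofactors and partners were read next. Among 25 RUNX2 cofactors and regulators 1 fell with T1D in WT, beside 0.828% of all genes, and the median was -0.10. On log2(TPM + 1) limma called 17 of them lower, where 35.3% of all genes were. In the A36 to A39 mice edgeR called 5 lower and 1 higher, beside 7.66% and 7.82% of all genes. Tle2, a corepressor of the Groucho family, was at -0.62 and Wwtr1, the coactivator TAZ, at -0.48, and neither passed the test. Of 9 tested TWIST1 partners 1 fell, beside 0.828% of all genes. It was the E protein gene Tcf4, at 69.2 ± 8.86 CPM and 47.7 ± 10.4 CPM (log2 -0.54, edgeR adjusted p = 0.0418). The partners' median was -0.05. Limma on log2(TPM + 1) called 3 partners lower, beside 35.3% of all genes. For the A36 to A39 mice edgeR called 2 partners lower and 1 higher, beside 7.66% and 7.82% of all genes. Hand2 (-1.31) and Twist2 (0.63), which did not pass the test, were below 2 CPM.

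Target genes of the factors came last. Of 22 RUNX2 and SP7 target genes 1 fell, 18 had a lower fitted mean and the median was -0.69, beside 0.828% of all genes that fell. On log2(TPM + 1) limma called 17 of the 22 lower, with a median of -1.11, where 35.3% of all genes were called lower and the median of all genes was -0.24. In the A36 to A39 mice edgeR called 8 lower and 1 higher, beside 7.66% and 7.82% of all genes. The gene that fell was Ibsp, which encodes bone sialoprotein, at 1325 ± 269 CPM in WT Control and 773 ± 197 CPM in WT T1D (log2 -0.78, SE 0.15, edgeR adjusted p = 0.0236). Col10a1, the collagen of hypertrophic cartilage, was at 61.2 ± 48.9 CPM and 5.49 ± 9.62 CPM (log2 -3.47, edgeR adjusted p = 0.138), and Ihh at -1.09 was likewise not called. Of 35 tested ATF4 target genes 2 rose, 25 had a higher fitted mean and the median was 0.16, beside 1.50% of all genes that rose. The direction turned on log2(TPM + 1), where limma called 0 higher and 10 lower, beside 0.578% and 35.3% of all genes, and the median was -0.11, against -0.24 over all genes. In the A36 to A39 mice edgeR called 8 higher and 1 lower, beside 7.82% and 7.66% of all genes. The risen genes were Slc3a2, the heavy chain of amino acid transporters, from 99.9 ± 7.37 to 130 ± 22.0 CPM (log2 0.38, edgeR adjusted p = 0.0451), and Eif4ebp1, a translation inhibitor, from 74.8 ± 8.18 to 109 ± 32.9 CPM (log2 0.54, edgeR adjusted p = 0.0490). Trib3 (1.60), Pycr1 (-0.81) and Vldlr (-0.58) had the largest changes of that list and did not pass the test.

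Creb3l2, Ibsp, Slc3a2 and Eif4ebp1 were named after their values were seen. Without A3905 and A3906 none of the lists held a called gene in WT, where 0 of all 14317 genes were called. The median was then -0.35 for the RUNX2 and SP7 targets and 0.05 for the ATF4 targets. In mice labelled KO, 0 genes of the 5 lists were called with T1D by edgeR, beside 0% of all genes, and the medians lay between -0.01 and 0.07.

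**Figure D4:**
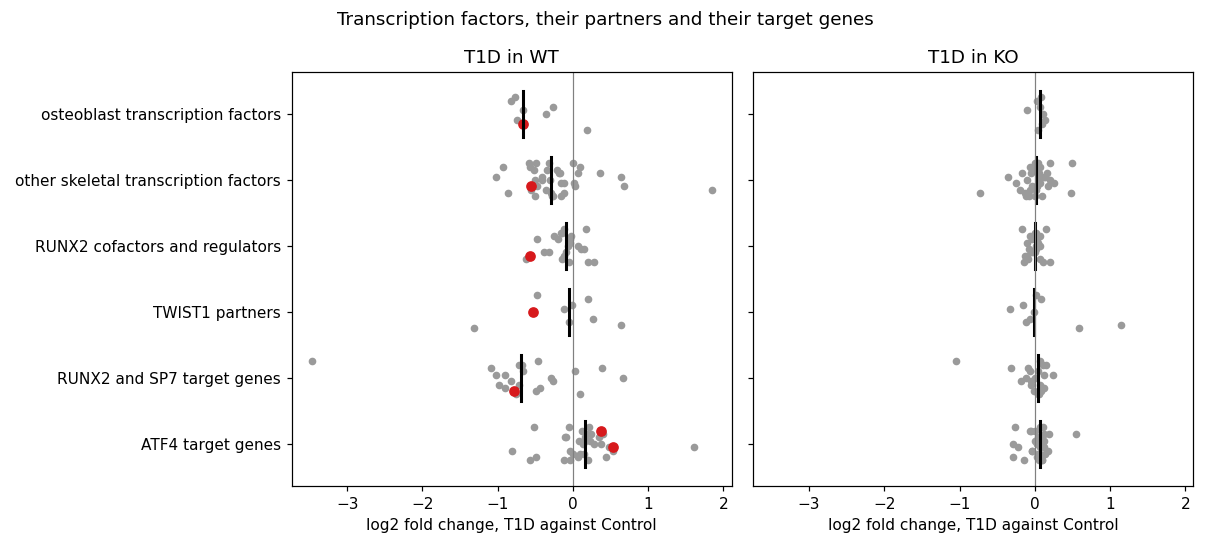
Log2 fold change of T1D against Control for each tested gene of 6 lists, in WT mice (left) and in mice labelled KO (right); points are genes, spread vertically for view only, red points have an edgeR adjusted p under 0.05, and black bars are list medians. In WT the members and the RUNX2 and SP7 targets have medians of -0.66 and -0.69, whereas in mice labelled KO every median lies between -0.01 and 0.07 and no point is red. By that test 0% of all genes were called in mice labelled KO.

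Genes whose level tracked the 2 core factors across the 23 mice were read as a description. The closest to Runx2 among 13299 genes were Fgfr1, a growth factor receptor (r = 0.931), Tbc1d8b (r = 0.927) and Dock1 (r = 0.926). The closest to Sp7 were Zbtb7c (r = 0.983), Gprc5c (r = 0.983) and Fkbp10, a chaperone of procollagen (r = 0.981). These mice share 4 groups and include A3905 and A3906, which stretch both axes. In the 21 mice without them r was 0.795, 0.782 and 0.798 for the Runx2 genes and 0.930, 0.888 and 0.897 for the Sp7 genes.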

How the data were processed

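Bone RNA from 23 mice was enriched for polyA, made into strand-marked libraries and sequenced as paired reads of 100 bases. The authors filtered reads with SOAPnuke, aligned them with HISAT and Bowtie2 (named in the submitters' processing notes) to GRCm38.p6, and estimated expression with RSEM, versions not given in the sources used here. The deposited expected counts were rounded to whole numbers by the authors, and the deposited TPM values came from the sequencing provider. Whether counting used strand was not given, so reads of Runx2 and of antisense genes annotated within it cannot be told apart.

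Groups came from the sample titles. The 14364 genes that reached 10 counts in 5 or more mice entered edgeR 4.0.16 (TMM, quasi-likelihood, 1 model of the 4 groups, R 4.3.3), with Benjamini-Hochberg adjustment at 0.05. CPM are counts scaled to a common library total with TMM factors (Msx2 without them), and intervals are 95% intervals. Alternatives used DESeq2 1.42.0, limma 3.58.1 on log2(TPM + 1) and log2(TPM + 0.1), other scalings and filters, and subsets of mice. Depth was 16938101 to 20135592 counts per mouse. The edgeR p-values set a difference between groups against the spread between mice, which was estimated over all groups of the fit together. The scripts were tested on simulated data. Only sequence windows from RefSeq were used.

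The members and lists were chosen with earlier results of these data known. Genes named from a list were the 3 with the largest absolute log2 fold change with T1D in WT, and for Runx2 and Sp7 the 3 with the highest Pearson r among genes of at least 1 CPM on the log2(CPM + 0.5) scale. Col1a1 was named outside this rule. Marker list levels are means of log2(CPM + 0.5), compared by exact permutation over mice. Some genes that this rule selects are not reported here. Promoter windows were found for 5 of 9 members.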

Additional observations from a re-analysis of the deposited data

Results flagged for a closer look

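In the 36 sets of 5 or 6 mice tested (9 members by 4 groups), the highest mouse stood far from the others in 3, and chance alone would give about 1 in 20 such sets. Cbfb in KO Control was at 79.7 CPM in mouse A3679, against 73.0 to 75.3 CPM in the other 5 mice. Msx2 in WT T1D was at 1.74 CPM in mouse A1764, against 0 to 0.479 CPM in the other 5. Msx2 in KO Control was at 1.02 CPM in mouse A3766, against 0.274 to 0.504 CPM in the other 5. The 2 Msx2 values rest on 31 and 18 counts. A3905 and A3906 were not singled out by this reading, which looks for 1 distant mouse at a time.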

How the results depend on the processing

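Leaving out 1 mouse in turn gave 0 to 2 members called and 0 to 1262 genes called for T1D in WT, and 3 to 95 genes for KO in T1D. With T1D in WT the members called numbered 6 with limma on either TPM scale, 7 in the A36 to A39 mice, and 0 with no low-count filter, with only the 2 groups compared, with the erythroid covariate and without A3905 and A3906. All genes called there were 1002 with DESeq2, 88 with no filter, 5154 (TPM + 1), 5173 (TPM + 0.1), 2211 in the A36 to A39 mice and 0 under those last 3 settings. For KO in T1D the members called were 3 on both TPM scales and 2 in the A36 to A39 mice, and all genes called were 239 (DESeq2), 5 (RLE), 4 (upper quartile), 3 (no filter), 5 (at least 50 counts), 1166 and 1185 (TPM + 1 and + 0.1), 4 (only 2 groups), 1540 (A36 to A39 mice), 7 (erythroid covariate) and 4 (without A3905 and A3906). For the interaction 2 genes were called with TPM + 1. With the A17 ID series as a term, a setting chosen after seeing the data, all genes called were 802 for T1D in WT and 664 for KO in T1D. Log2 fold changes that turned sign were as follows. On both TPM scales Atf4 was at -0.11 for T1D in WT, -0.0033 for T1D in KO, -0.010 for KO in Control, 0.092 (TPM + 1) and 0.093 (TPM + 0.1) for KO in T1D and 0.10 for the interaction, and Sp7 at -0.011 for T1D in KO. With library size only, T1D in KO was -0.015 for Sp7 and -0.00078 for Atf4. With the erythroid covariate, T1D in WT was 0.12 for Creb3l1 and 0.39 for Twist1, KO in Control was 0.14 for Sp7, 0.10 for Dlx3, 0.14 for Creb3l1 and 0.19 for Twist1, KO in T1D was -0.030 for Twist1, and the interaction was -0.035 for Dlx5 and -0.22 for Twist1. Without A3905 and A3906, Twist1 was at 0.076 for T1D in WT and -0.044 for KO in T1D. In the A36 to A39 mice, Dlx5 was at -0.032 for KO in Control. Leaving out 1 mouse, signs turned for T1D in KO in Dlx3 (-0.053 to 0.16) and Sp7 (-0.051 to 0.12), and for KO in Control in Dlx3 (-0.19 to 0.059), Dlx5 (-0.045 to 0.24) and Twist1 (-0.24 to 0.11). The cause was not tested. No paired analysis was possible because the only number the labels give a mouse is an ID of its own, and nothing in them pairs mice across groups. Depth limited Msx2, at 0 to 31 counts per mouse, and the 5 or 6 mice a group limited the precision of the rest.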
